A study of Mus musculus with 6 samples.

Results

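The mitochondrial ribosomal proteins were taken as the genes whose symbol is Mrpl or Mrps followed by a number, Mrpl for the large and Mrps for the small subunit of the mitochondrial ribosome. Of 20145 named genes on the array, 78 met this rule, 49 of them Mrpl and 29 Mrps. They were covered by 99 probes, found through their RefSeq accession, with 1 probe for 57 genes and 2 for 21. Tests could be run on 77 of them, 48 Mrpl and 29 Mrps. The exception, Mrpl21, has 1 probe, which was not well above background on any of the 6 arrays. All 77 were well above background on all 6 arrays, so none entered through 1 group alone.

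Mitochondria translate the few messenger RNAs of their own genome, which in mammals all encode subunits of the oxidative phosphorylation complexes, on ribosomes of their own. The RNA of these ribosomes is made inside the organelle, whereas their proteins are encoded in the nucleus, made in the cytosol and imported. Some of the proteins have counterparts in bacterial ribosomes and the others are found in mitochondria alone. Heart muscle runs almost wholly on oxidative phosphorylation, and in humans mutations in some of these genes cause cardiomyopathy.

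The tissue was ventricle from male mice of the C57bl/6j background, 11 to 12 weeks old, hybridised to one-colour Agilent arrays, 1 for each of 6 biological replicates. The 3 icKO mice had floxed Tead1 on both alleles (Tead1F/F) and carried Myh6-CreER, a Cre recombinase under a cardiomyocyte promoter that acts once tamoxifen is given. The 3 control mice were Tead1 flox mice, for which the labels name no Cre. Tamoxifen was given to both groups. Loss of Tead1, a DNA-binding partner of the coactivators YAP and TAZ, and activity of Cre in cardiomyocytes cannot be told apart in this design, and cells other than cardiomyocytes keep their Tead1. The Tead1 probe differed by -0.40 on the log2 scale (limma, adjusted p = 0.03), and by 0.04 with spike-in scaling. Leaving out the array of control 1, control 3, icKO 2 or icKO 3 ended the call (-0.35, -0.38, -0.36 and -0.37). The position of the probe relative to the deletion is unknown, and it therefore gives no check of the labels.

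A level below is the log2 processed signal of a gene's brightest probe less the 75th percentile of its array, so that 0 marks that percentile. A difference is icKO minus control on this scale, with its standard error from limma fitted to all 22278 features over 3 and 3 arrays, and p-values are Benjamini-Hochberg adjusted over all of these features. The 75th percentile itself was 312, 348 and 292 signal units on the icKO arrays, against 189, 233 and 215 on the controls. Probes well above background made up 47.7% to 50.9% of an array. The number of arrays limits the precision. All 6 arrays lay on 1 slide, icKO in slide columns 2, 3 and 3 and controls in columns 1, 1 and 2. Ventricle is a mixture of cells, and fewer cells of a type cannot be told apart from less RNA per cell.

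Messenger RNA of nearly every mitochondrial ribosomal protein was lower in icKO ventricles. Of the 77 genes tested, 72 were lower and 0 higher (limma, adjusted p under 0.05), while 5 did not pass. Among all features, 28.7% were called lower and 16% higher, 44.8% in either direction. The median difference of the 77 genes was -0.78, with quartiles of -1.0 and -0.51, beside a median of -0.14 over all features. The 20 largest of the 72 falls exceeded 1 on the log2 scale, or more than 2-fold, and among all features 7.74% fell that far. In 73 of the 77 genes every icKO array lay below every control array, and in 0 every icKO array lay above, against 37.5% and 21.5% of all features.

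The size of the fall depended on how arrays were scaled. Spots of spike-in control probes gave an alternative scale, which raised all differences by 0.44. On it, 25 of the 77 genes were called lower and 3 higher (Mrpl20, Mrpl33 and Mrpl54), 65 differences were negative, and the median was -0.34. The same scale called 7.54% of all features lower and 32.2% higher, around a median of 0.30. Relative to the median of all features, the members lay at -0.64 with percentile, median and spike-in scaling. These subtract a constant from each array, so their figures were bound to be alike. The figure was -0.63 with quantile normalization and the authors' value table, and -0.51 with normexp background correction. All 25 genes lower on the spike-in scale were among the 72, which a rise of all differences makes nearly certain. With slide column as a block, which rests the comparison on the column that holds both groups, 35 were called lower, against 8.59% of all features, and 76 of 77 differences were negative. The block ended the calls of Mrpl10, Mrpl11, Mrpl41, Mrpl58, Mrps5, Mrps11, Mrps12, Mrps18a, Mrps18c, Mrps21, Mrps23, Mrps27, Mrps30 and Mrps34 among the genes described below. The differences of this fit are those of 1 array against 1, icKO replicate 1 less control replicate 3, with a median of -0.86 over the 77 genes. Of all features, 60.2% lay lower in that icKO array. Among the icKO arrays, replicate 1 had the lowest median of the members (-0.46 after centring each gene, against -0.41 and -0.28).

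**Figure D1:**
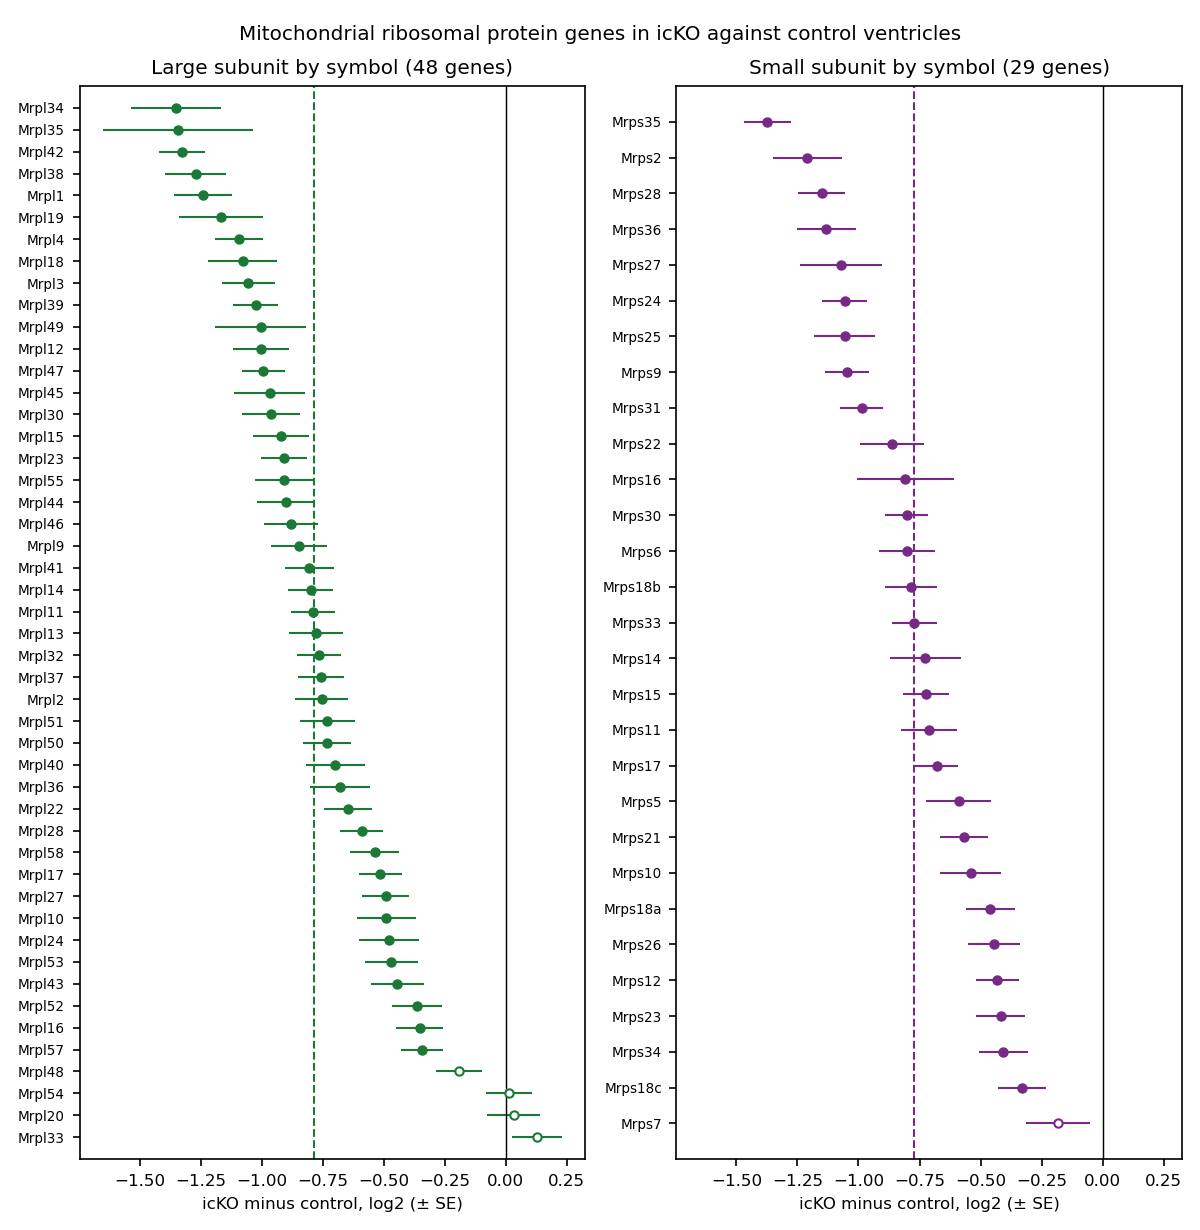
Difference between icKO and control ventricles for each of the 77 genes (x axis, log2, icKO minus control, with standard error; filled points passed limma's test at an adjusted p under 0.05), large subunit left and small subunit right, each sorted by size, with the median of the subunit as a dashed line. The medians lie at -0.78 and -0.77, and the 5 open points are Mrpl48, Mrpl54, Mrpl20, Mrpl33 and Mrps7. With spike-in scaling all points move up by 0.44, which puts 65 of 77 below 0.

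Start-site sequences are shown because genes for mitochondrial proteins are known to share binding sites of NRF1, of GABPA (an ETS family factor) and of YY1 near their starts, and because most members moved together here. RefSeq windows of assembly GRCm38.p6, 250 bases before to 50 after each start, were found for 69 of the 78 genes, 75 windows in all. The motifs searched, on both strands, were GCGC, any base and TGCGC for NRF1, CCGGAAG for the ETS family, AAGATGGC for YY1, CACGTG for the E-box bound by MYC, AAGGTCA for estrogen-related receptors (ERR) and GGAATG for TEAD factors. In member windows, different motifs overlapped in 1 place. Below, 200 bases before to 30 after the start are printed for 5 genes in the sense of the gene, with matches in capitals. Mrps11, at chr7:78782931-78783160 (plus strand), holds a YY1 match 107 bases before its start and TEAD matches at bases 2 and 11 after it, on opposite strands.
Mrps11: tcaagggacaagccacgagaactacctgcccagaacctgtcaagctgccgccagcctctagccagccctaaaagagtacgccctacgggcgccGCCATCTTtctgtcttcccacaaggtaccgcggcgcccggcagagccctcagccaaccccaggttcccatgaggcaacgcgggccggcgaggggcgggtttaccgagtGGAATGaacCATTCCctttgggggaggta
Mrpl12, at chr11:120484437-120484666 (plus strand), holds an NRF1 match 81 bases before its start.
Mrpl12: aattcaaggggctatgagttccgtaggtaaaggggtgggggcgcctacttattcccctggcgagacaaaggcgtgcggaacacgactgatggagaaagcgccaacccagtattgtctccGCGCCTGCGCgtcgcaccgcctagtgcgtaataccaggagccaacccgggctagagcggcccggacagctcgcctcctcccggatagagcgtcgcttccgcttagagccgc
Mrps21, at chr3:95871485-95871714 (minus strand), holds an NRF1 match 91 bases before its start, ERR matches 175 and 63 bases before it, and an ETS match at base 19 after it.
Mrps21: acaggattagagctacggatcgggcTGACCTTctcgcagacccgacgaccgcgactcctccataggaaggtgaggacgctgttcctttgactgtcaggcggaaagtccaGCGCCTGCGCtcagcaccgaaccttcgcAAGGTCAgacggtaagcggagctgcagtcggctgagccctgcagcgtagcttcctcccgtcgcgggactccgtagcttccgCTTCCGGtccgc
Mrps27, at chr13:99344586-99344815 (plus strand), holds an ETS match 48 bases before its start and a YY1 match at base 15 after it.
Mrps27: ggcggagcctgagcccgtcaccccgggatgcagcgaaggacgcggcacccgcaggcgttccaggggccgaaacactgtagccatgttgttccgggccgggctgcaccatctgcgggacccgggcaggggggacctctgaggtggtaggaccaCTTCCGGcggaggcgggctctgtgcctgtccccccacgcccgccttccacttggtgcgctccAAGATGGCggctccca
Mrpl33, at chr5:31613751-31613980 (plus strand), which was not called lower, holds an ETS match 3 bases before its start.
Mrpl33: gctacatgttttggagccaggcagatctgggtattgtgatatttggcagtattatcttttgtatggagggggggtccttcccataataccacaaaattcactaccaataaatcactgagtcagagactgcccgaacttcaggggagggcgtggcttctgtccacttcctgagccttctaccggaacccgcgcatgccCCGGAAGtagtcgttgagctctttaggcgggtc
The first 4 of these genes were called lower, by 0.71 ± 0.12, 1.0 ± 0.11, 0.57 ± 0.10 and 1.07 ± 0.17 (SE) on the log2 scale, and Mrpl33 differed by 0.13 ± 0.10. On the spike-in scale Mrps11 and Mrps21 were not called (-0.27 and -0.13, adjusted p = 0.242 and 0.516). A match is a description of the letters in a window and not a bound site.

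Matches to the ETS motif were the most frequent, in 26 of 75 member windows (34.7%), against 11.6% of protein-coding and 8.86% of all windows. NRF1 matches were present in 13 member windows (17.3%), against 6.38% of protein-coding and 4.6% of all windows. YY1 matches were present in 12 (16%), against 3.05% and 2.75%. At least 1 of these 3 motifs was found in 43 member windows (57.3%), against 18.9% of protein-coding and 14.7% of all windows. The E-box was in 7 member windows, 3 of them overlapping windows of Mrpl2, and counted by gene it was in 5 of 69 members (7.25%), against 8.91% of protein-coding genes. The ERR motif was in 5.33% of member windows and 4.08% of protein-coding ones. The TEAD motif was in 8 member windows, or 10.7%, against 13.6% of protein-coding windows. The windows of Mrps11 and Mrpl46 overlap, and the TEAD matches near the Mrps11 start lie in both. Member windows had a median GC content of 58.7%, against 56.3% in protein-coding windows and 52.7% in all windows.

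The fall was seen with and without each motif. All 13 genes with an NRF1 match were called lower, with a median difference of -0.85, beside -0.73 for tested genes whose windows had none. Of 25 tested genes with an ETS match, 23 were called lower, and their median was -0.51, beside -0.80 without one. The 12 genes with a YY1 match had a median of -0.76, as did the genes without, and 11 of them were called lower. All 8 genes with a TEAD match were called lower, with a median of -0.87, beside -0.76 without one. Of all 77 tested members 93.5% were called lower, beside 28.7% of all features, so the counts by motif lie near the share of the members as a whole. On the spike-in scale each median by motif is higher by 0.44. There 25 of the 77 members were called lower, and Mrpl33, which has an ETS match, was called higher. The groups of genes with each motif overlap and were not tested against each other.

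**Figure D2:**
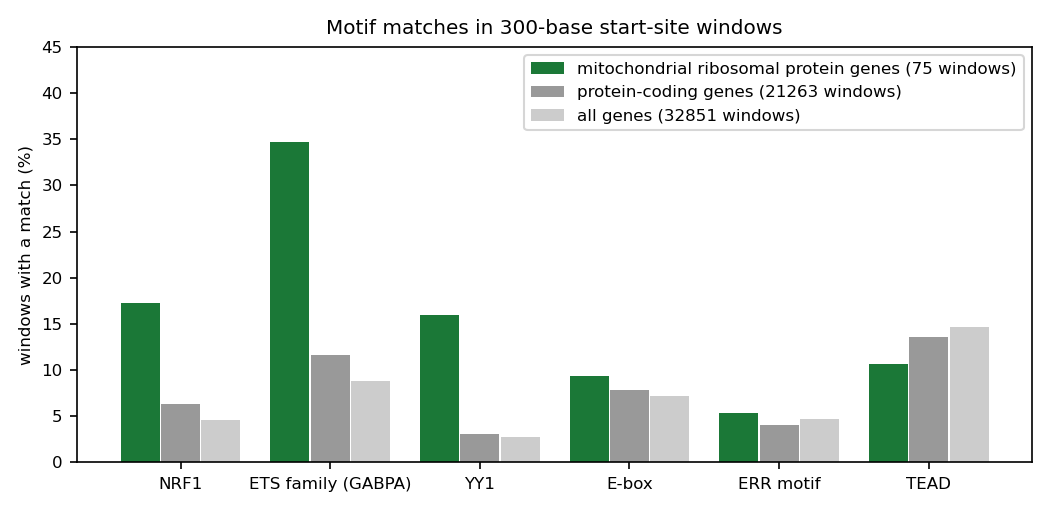
Share of start-site windows of 300 bases with at least 1 match to each motif (y axis, percent), for the 75 windows of mitochondrial ribosomal protein genes, 21263 windows of protein-coding genes and 32851 windows of all genes. ETS, NRF1 and YY1 matches were in 34.7%, 17.3% and 16% of member windows, against 11.6%, 6.38% and 3.05% of protein-coding windows, while TEAD matches were in 10.7% and 13.6%.

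Many members share a start region with another gene. In 25 of 75 member windows (33.3%) a gene on the opposite strand started within 500 bases upstream, head to head, against 10.6% of protein-coding and 9.84% of all windows. Counted by gene, this held for 23 of 69 members (33.3%) and 11.7% of protein-coding genes. One such pair joins both subunits: Mrpl46 and Mrps11 start 42 bases apart, and both fell, by 0.88 ± 0.11 and 0.71 ± 0.12 (SE; adjusted p = 0.0018 and 0.00437). With spike-in scaling neither was called (-0.44 and -0.27, adjusted p = 0.0678 and 0.242). Of the 17 other head-to-head neighbours that could be tested, 7 were lower, 0 higher and 10 did not pass. Among all features, 28.7% were lower and 16% higher. The median of these neighbours was -0.17, close to the -0.14 of all features, beside -0.76 for the members they face. The 7 that were lower were Cyb5rl (-0.97, facing Mrpl37), Twnk, the mitochondrial DNA helicase (-0.85, facing Mrpl43), Ndufb5 of complex I (-0.80, facing Mrpl47), Ptcd2, a mitochondrial pentatricopeptide repeat protein (-0.74, facing Mrps27), Zfp661 (-0.66, facing Mrps5), Sars2, the mitochondrial seryl-tRNA synthetase (-0.55, facing Mrps12), and Tcp1, a subunit of the cytosolic chaperonin (-0.42, facing Mrpl18). The 10 that did not pass lay between -0.25 for Tmem63b, facing Mrpl14, and 0.39 for Hira, a histone chaperone facing Mrpl40 (adjusted p = 0.113 and 0.0603). With spike-in scaling all of these differences are higher by 0.44. These neighbours were named after their values were seen.

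In the large subunit, 44 of 48 genes were lower and the median difference was -0.78. Proteins of the stalks, the flexible arms that handle tRNA and translation factors, all fell. Mrpl1, the counterpart of the bacterial L1 stalk protein, had levels of -0.72, -0.54 and -0.42 in icKO ventricles, against 0.80, 0.57 and 0.67 in controls. The icKO arrays were low throughout, and the difference was -1.24 ± 0.12 (SE; adjusted p = 0.000747). Mrpl12, which forms the other stalk and is also reported to bind the mitochondrial RNA polymerase, had levels of 5.42, 5.56 and 5.75 in icKO ventricles, against 6.59, 6.52 and 6.63 in controls. Its groups did not overlap, and it fell by 1.0 ± 0.11 (adjusted p = 0.00131). At the base of that stalk, Mrpl10 and Mrpl11 differed by -0.49 ± 0.12 and -0.79 ± 0.09 (adjusted p = 0.0186 and 0.00127). On the spike-in scale Mrpl1 and Mrpl12 were still called lower (-0.80 and -0.56), and Mrpl10 and Mrpl11 were not (-0.05 and -0.35). Leaving out control 1 (-0.45) or control 3 (-0.47) ended the Mrpl10 call, as did median scaling (-0.33) and normexp (-0.29).

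The largest falls in the large subunit included counterparts of bacterial proteins and mitochondria-specific ones alike. Mrpl34, the counterpart of bacterial L34, had levels of 3.01, 3.60 and 3.60 in icKO ventricles, against 4.74, 4.63 and 4.89 in controls. The lowest value was that of icKO replicate 1, and every icKO array lay below every control, for a difference of -1.35 ± 0.19 (adjusted p = 0.00238). Mrpl35, the counterpart of bacterial L35, had levels of -1.20, 0.0 and -0.25 in icKO ventricles, against 0.83, 0.73 and 1.02 in controls. Its icKO arrays were more scattered than those of other members, with replicate 1 lowest, and the difference of -1.34 ± 0.31 (adjusted p = 0.0144) has the largest standard error of the 77. Mrpl42, a mitochondria-specific protein, had levels of 3.62, 3.69 and 3.72 in icKO ventricles, against 4.92, 5.09 and 5.01 in controls. Here the arrays of each group lay close together and the groups far apart (-1.33 ± 0.09, adjusted p = 0.000314). Mrpl38, also mitochondria-specific, had levels of 0.98, 1.32 and 1.36 in icKO ventricles, against 2.49, 2.5 and 2.48 in controls, with no overlap (-1.27 ± 0.12, adjusted p = 0.000798). Mrpl19, Mrpl4 and Mrpl18 have bacterial counterparts, of which L4 lines the exit tunnel for the new protein chain. They fell by 1.17 ± 0.17, 1.09 ± 0.10 and 1.08 ± 0.14, each with separate groups. All 7 genes of this paragraph stayed lower on the spike-in scale, at -0.91 for Mrpl34, -0.90 for Mrpl35 and -0.64 for Mrpl18.

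Mrpl3 and Mrpl44, in which human mutations cause hypertrophic cardiomyopathy, were lower as well. Mrpl3 had levels of 3.86, 3.90 and 4.12 in icKO ventricles, against 5.11, 5.0 and 4.94 in controls, a difference of -1.05 ± 0.11 (adjusted p = 0.000977). Mrpl44 had levels of 2.11, 2.35 and 2.46 in icKO ventricles, against 3.22, 3.15 and 3.26 in controls, a difference of -0.90 ± 0.12 (adjusted p = 0.00206). Both had every icKO array below every control. Mrpl3 was also called lower with spike-in scaling (-0.61), and Mrpl44 was not (-0.46, adjusted p = 0.0526). Mrpl58, a peptidyl-tRNA hydrolase built into the large subunit that frees stalled ribosomes, differed by -0.54 ± 0.10 (adjusted p = 0.00703). On the spike-in scale it was not called (-0.10, adjusted p = 0.639).

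In the large subunit 4 genes did not pass. Sorted by level, the 26 dimmest of all members were all called lower. Of the next 26 members 24 were, and of the 25 brightest 22. The median differences were -0.86, -0.78 and -0.73, and whether brightness bears on the fall was not tested. Mrpl33, the counterpart of bacterial L33, had levels of 7.39, 7.38 and 7.53 in icKO ventricles, against 7.42, 7.20 and 7.30 in controls. The groups overlapped, with icKO replicate 3 highest and control replicate 2 lowest, and the difference was 0.13 ± 0.10 (adjusted p = 0.343). It was called higher with quantile normalization and in the authors' value table (0.39 each) and with spike-in scaling (0.57). Mrpl20, the counterpart of a bacterial protein needed to assemble the large subunit, had levels of 5.77, 5.71 and 5.95 in icKO ventricles, against 5.85, 5.67 and 5.81 in controls. Mrpl54, a mitochondria-specific protein, had levels of 5.12, 5.27 and 5.27 in icKO ventricles, against 5.28, 5.18 and 5.16 in controls. Both had overlapping groups, with differences of 0.03 ± 0.11 and 0.01 ± 0.10 (adjusted p = 0.829 and 0.923), and with spike-in scaling both were called higher (0.47 and 0.45). Mrpl48, mitochondria-specific too, had levels of 4.93, 5.06 and 5.07 in icKO ventricles, against 5.25, 5.13 and 5.24 in controls. Every icKO array was below every control, but by little, and the difference of -0.19 ± 0.09 did not pass (adjusted p = 0.143).

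In the small subunit, 28 of 29 genes were lower and the median difference was -0.77. Mrps35, a mitochondria-specific protein, gave the largest fall of all 77 genes, with levels of 2.43, 2.46 and 2.63 in icKO ventricles, against 3.92, 3.88 and 3.84 in controls. The groups were far apart, for a difference of -1.37 ± 0.10 (adjusted p = 0.000314), or -0.93 with spike-in scaling. Mrps2, the counterpart of bacterial S2, had levels of 0.67, 0.99 and 1.0 in icKO ventricles, against 2.0, 2.0 and 2.30 in controls. Replicate 1 was lowest in icKO and replicate 3 highest in controls, and the groups did not overlap (-1.21 ± 0.14, adjusted p = 0.00139). Mrps28 had levels of 4.57, 4.59 and 4.68 in icKO ventricles, against 5.87, 5.73 and 5.70 in controls, again without overlap (-1.15 ± 0.10, adjusted p = 0.000486). Mrps27, an RNA-binding protein of the pentatricopeptide repeat family, fell by 1.07 ± 0.17 (adjusted p = 0.00382). These 4 genes were also called lower with spike-in scaling, Mrps27 least of them (-0.63, adjusted p = 0.0403).

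Further small subunit genes, of the decoding site or linked to human disease, had smaller differences, between -0.86 and -0.41. Mrps12, the counterpart of bacterial S12 at the decoding centre, differed by -0.43 ± 0.09 (adjusted p = 0.00966). Mrps5, whose worm relative is known for lengthening life when knocked down, differed by -0.59 ± 0.13 (adjusted p = 0.0138). Mrps22 and Mrps14, in which human mutations are reported with cardiomyopathy, fell by 0.86 ± 0.13 and 0.73 ± 0.14 (adjusted p = 0.00336 and 0.00866). Mrps16 had levels of 4.59, 5.31 and 5.23 in icKO ventricles, against 5.89, 5.80 and 5.88 in controls. Replicate 1 was lowest in icKO, the groups were separate, and the difference was -0.81 ± 0.20 (adjusted p = 0.0183). Its call ended when control 1 (-0.79) or control 3 (-0.80) was left out. Mrps34, mutated in human Leigh syndrome, differed by -0.41 ± 0.10 (adjusted p = 0.0191), and its call ended when control 1 (-0.39), control 3 (-0.35) or icKO 2 (-0.40) was left out. With spike-in scaling none of these 6 genes was called, and Mrps12 and Mrps34 stood at 0.01 and 0.03.

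Mrps18a, Mrps18b and Mrps18c are relatives of 1 bacterial protein, S18, that lie at different places in the mitochondrial ribosome. Mrps18b fell most, by 0.79 ± 0.11 (adjusted p = 0.00218), Mrps18a by 0.46 ± 0.10 (adjusted p = 0.0125) and Mrps18c by 0.33 ± 0.10 (adjusted p = 0.0339). The Mrps18c call was the weakest of the 3 and was lost when any 1 of the 6 arrays was left out, with differences of -0.37 to -0.28. With spike-in scaling the 3 genes stood at -0.02 for Mrps18a, -0.34 for Mrps18b and 0.11 for Mrps18c, and none was called.

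Genes whose symbol and place differ are Mrps30 and Mrps18a, whose proteins lie in the large subunit, and Mrps36, whose protein is now known as a subunit of the alpha-ketoglutarate dehydrogenase complex of the citric acid cycle. Mrps30 fell by 0.80 ± 0.09 (adjusted p = 0.00113). Mrps36 had levels of 4.18, 4.49 and 4.53 in icKO ventricles, against 5.55, 5.49 and 5.56 in controls, with a wide gap between the groups (-1.13 ± 0.12, adjusted p = 0.00104). With spike-in scaling Mrps36 was called lower and Mrps30 was not (-0.36, adjusted p = 0.0851). Without Mrps36 and with proteins sorted by place, 46 of 50 large subunit genes were lower (median -0.78) and 25 of 26 small subunit genes (median -0.75).

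The shifts of the large and the small subunit differed by less than the spread between arrays in the scaling used here, though not in every setting. Each gene was centred on its mean over the 6 arrays, and on each array the median of the Mrps genes was taken from that of the Mrpl genes. This gave 0.0007, -0.021 and 0.0044 on the icKO arrays, against -0.0013, -0.018 and 0.056 on the control arrays. The values of the groups overlapped, at -0.0052 ± 0.014 in icKO and 0.012 ± 0.039 in controls (SD, n = 3 each). The difference between the groups was -0.017 and the spread between arrays of a group 0.029. The difference was beyond that spread without icKO replicate 1 (-0.049) and with normexp background correction (-0.059). Sorted by place, the means were -0.017 ± 0.035 in icKO and 0.011 ± 0.035 in controls (SD, n = 3 each). Counterparts of bacterial proteins and mitochondria-specific proteins also gave like values, with 43 of 46 and 29 of 31 genes lower and medians of -0.77 and -0.80. Mrps36 was counted among the mitochondria-specific proteins here.

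Members also moved together within a group. The median of the 77 centred levels was -0.46, -0.41 and -0.28 on the icKO arrays, against 0.43, 0.33 and 0.42 on the controls. In icKO replicate 3, 74 of 77 genes lay above the mean of their group, whereas in icKO replicate 1 only 11 did, and in control replicate 2 only 8. Among all features, 50.8% lay above their group mean in icKO replicate 3, 49.6% in icKO replicate 1 and 39.1% in control replicate 2. Whether these deviations follow the genotype shift or the arrays was not tested. All icKO arrays were below all controls in the median of the members. The median of all features was separate too, by less, at -0.07, -0.06 and -0.07 on the icKO arrays, against 0.09, 0.05 and 0.08.

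**Figure D3:**
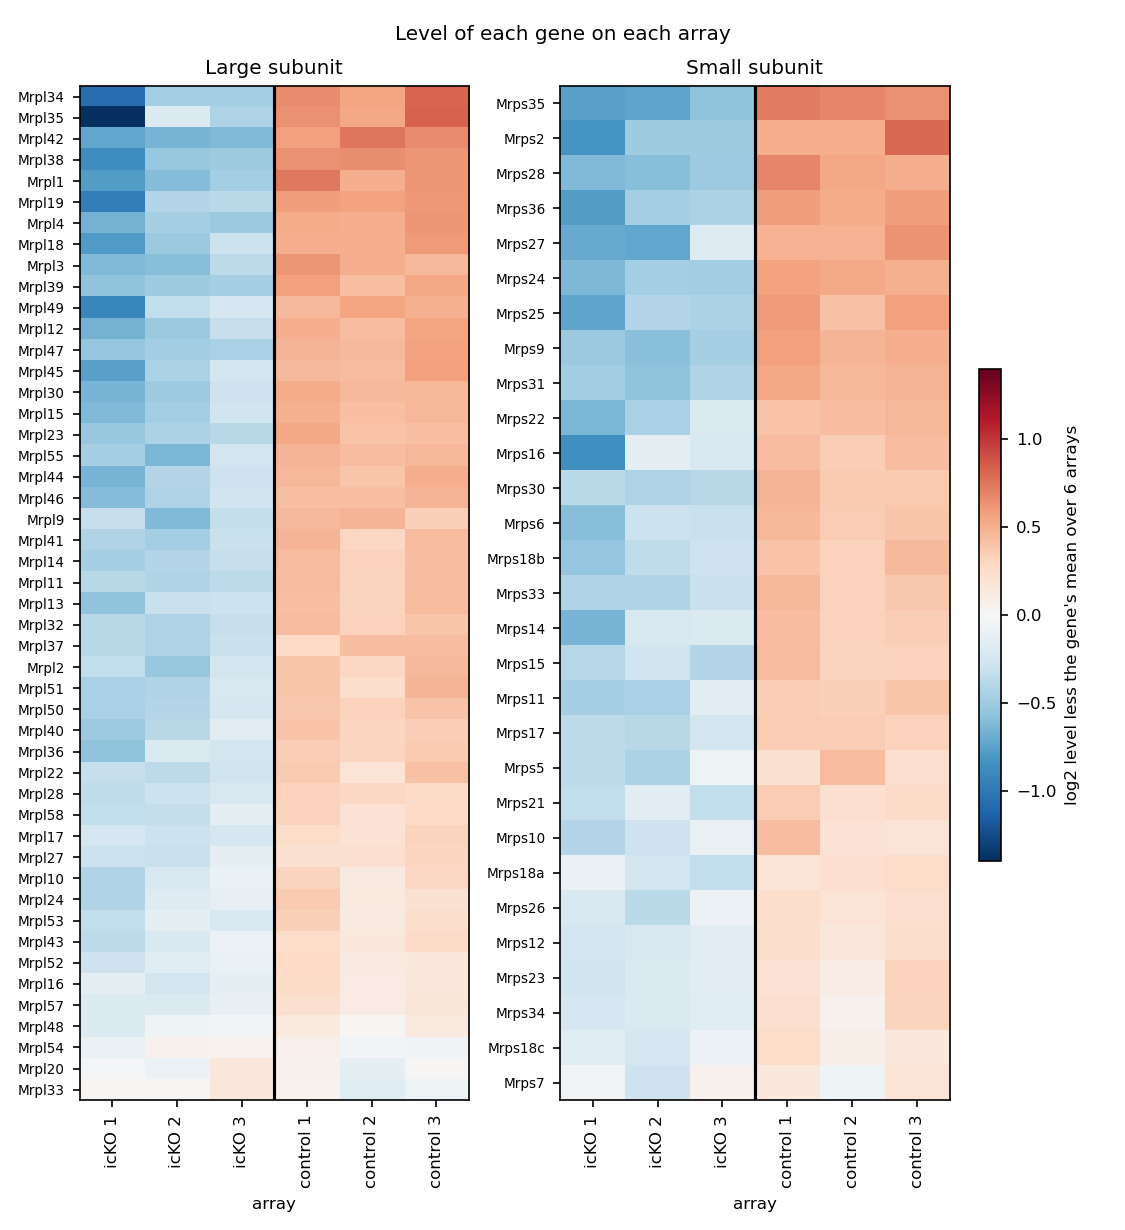
Log2 level of each of the 77 genes on each array less the gene's mean over the 6 arrays (colour scale), with the 3 icKO arrays left of the 3 control arrays, the large subunit left and the small subunit right, sorted by difference. Nearly all icKO cells are blue and control cells red, icKO replicate 3 is the palest icKO array, with 74 of 77 genes above their group mean, and the bottom rows hold the 5 genes that did not pass.

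Where a gene had 2 probes, these mostly gave one answer. Both differences were negative in 20 of 21 such genes, they lay within 0.5 of each other in 17, and the median gap was 0.16. Mrps25, a mitochondria-specific small subunit protein, was the exception: its brighter probe gave -1.06 and its dimmer one 0.17 (adjusted p over probes = 0.402). Mrps7, the 1 small subunit gene that did not pass, is the counterpart of bacterial S7, which starts assembly of the small subunit head. Its levels were 4.92, 4.67 and 5.02 in icKO ventricles, against 5.10, 4.90 and 5.15 in controls, which overlapped (-0.18 ± 0.13, adjusted p = 0.289). Its dimmer probe stood at 1.72, 1.89 and 2.15 in icKO ventricles, against 2.62, 2.76 and 2.77 in controls, with no overlap and a difference of -0.80 (adjusted p over probes = 0.00483). With the mean of a gene's probes, Mrps7 was called lower too, for 73 of 77 genes. The dimmer probe of Mrps23, a mitochondria-specific protein, gave -0.19 and did not pass, where the brighter gave -0.42. The brighter probe's call ended when control 3 was left out (-0.36), with quantile normalization (-0.23) and in the authors' value table (-0.23). Mrpl41 (-0.81 and -1.41) and Mrps14 (-0.73 and -1.4) fell by more with the dimmer probe, which for Mrps14 was well above background on 2 of 3 icKO arrays.

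**Figure D4:**
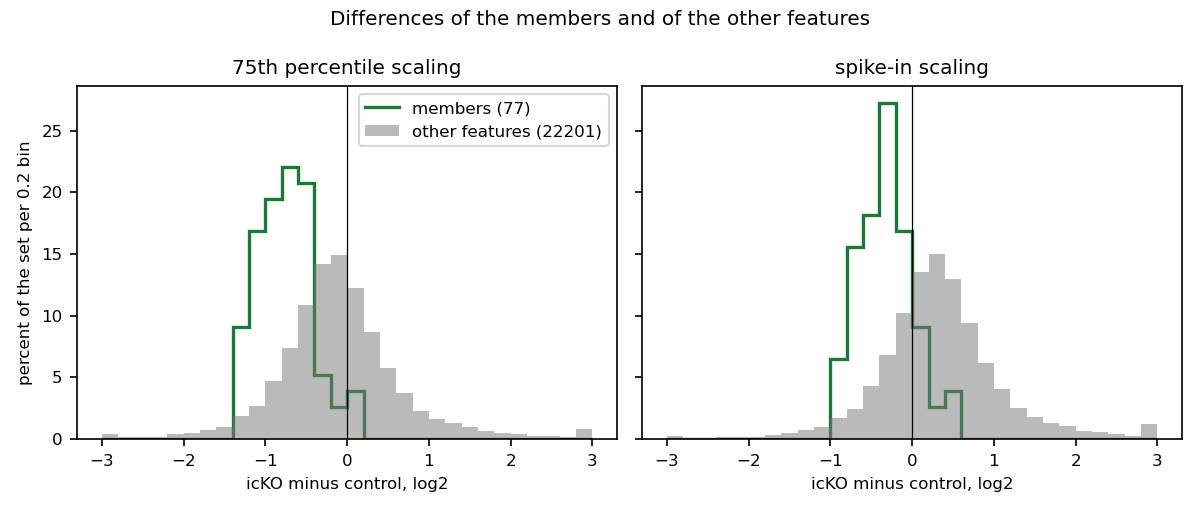
Distribution of the differences (x axis, log2, icKO minus control, values beyond 3 collected in the end bins; y axis, percent of the set per bin of 0.2) of the 77 mitochondrial ribosomal protein genes (line) and the 22201 other features (grey), with 75th percentile scaling left and spike-in scaling right. Most members lie left of most other features in both panels, with medians of -0.78 and -0.34, while the spike-in scale moves the median of all features to 0.30.

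Genes that work with the mitochondrial ribosome were lower as well. The lists were mitoribosomal proteins under other symbols, assembly factors and enzymes that modify its RNA, translation factors, and mitochondrial aminoacyl-tRNA synthetases. Together 54 of 63 measured genes were lower and 1 higher, against 28.7% and 16% of all features. On the spike-in scale 25 were lower and 1 higher, against 7.54% and 32.2% of all features. All 5 mitoribosomal proteins with other symbols fell, with a median of -0.82, and 2 of them were called lower with spike-in scaling. Ptcd3, a pentatricopeptide repeat protein of the small subunit, had levels of 3.77, 4.06 and 4.03 in icKO ventricles, against 5.44, 5.39 and 5.40 in controls. The groups were far apart (-1.46 ± 0.11, adjusted p = 0.000364). Gadd45gip1 of the large subunit fell by 1.09 ± 0.12 and the GTP-binding protein Dap3 of the small subunit by 0.82 ± 0.09. The Dap3 call ended with spike-in scaling (-0.37, adjusted p = 0.0808) and with slide column as a block (-0.76, adjusted p = 0.0526).

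Of 24 assembly and RNA modification genes measured, 19 were lower and 1 higher, with a median of -0.76. With spike-in scaling 9 were lower and 1 higher. Mrm3, which methylates the large ribosomal RNA, had levels of 0.14, 0.09 and 0.18 in icKO ventricles, against 1.6, 1.55 and 1.81 in controls. No icKO value came near a control value (-1.52 ± 0.10, adjusted p = 0.000297). Mettl17 and the GTPase Mtg2, both assembly factors, fell by 1.29 ± 0.11 and 1.11 ± 0.10. Mpv17l2, an inner membrane protein tied to ribosome assembly, was the 1 that rose, with levels of 2.14, 2.16 and 2.28 in icKO ventricles, against 1.59, 1.77 and 1.72 in controls (0.50 ± 0.10, adjusted p = 0.00843). Every icKO array lay above every control, and with no filter on dim probes, where 49244 features were tested, its call was lost (adjusted p = 0.0504), as it was with slide column as a block (0.42, adjusted p = 0.199).

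Of 15 translation factors, 12 were lower and 0 higher, with a median of -0.83, and 7 were lower with spike-in scaling. Tufm, the elongation factor that brings tRNA to the ribosome, had levels of 4.06, 4.42 and 4.53 in icKO ventricles, against 5.74, 5.74 and 5.75 in controls. The controls were nearly equal and all icKO arrays lower (-1.4 ± 0.14, adjusted p = 0.000798). Mrrf, which recycles ribosomes after release, fell by 1.24 ± 0.11, and Lrpprc, which binds and protects mitochondrial messenger RNA, by 1.02 ± 0.11. Of 19 genes for charging mitochondrial tRNA, 18 were lower and 0 higher, with a median of -0.88, and 7 were lower with spike-in scaling. The enzymes for tyrosine, valine and alanine, Yars2, Vars2 and Aars2, fell by 1.45 ± 0.14, 1.35 ± 0.11 and 1.16 ± 0.12.

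Ribosomal proteins of the cytosol gave other values than those of the mitochondrion. Of 78 measured Rpl and Rps genes, 16 were lower and 1 higher, against 28.7% and 16% of all features. Their median was -0.15, close to the -0.14 of all features. Their counts and median depended on scaling, as did those of all features. With quantile normalization 5 were lower and 20 higher (median 0.11), against 23.8% and 18.3% of all features (median -0.07). With spike-in scaling 1 was lower and 12 higher (median 0.29), against 7.54% and 32.2% of all features (median 0.30). The subunits of the respiratory complexes, to which the products of mitochondrial translation belong, had 78 of 80 genes lower and a median of -0.85, or 37 lower, 2 higher and -0.41 with spike-in scaling. With quantile normalization they had 64 lower, 3 higher and a median of -0.47, where the mitochondrial ribosomal proteins stood at -0.70. Differences between lists were not tested.

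Of 11 measured regulators of these genes, 3 were lower and 2 higher, shares near the 28.7% and 16% of all features. The balance depended on scaling, as it did for all features. It was 1 lower and 3 higher with median scaling, against 16.4% and 19.7% of all features. With spike-in scaling it was 1 lower and 4 higher, against 7.54% and 32.2%. Nrf1, nuclear respiratory factor, had levels of 0.98, 0.74 and 0.90 in icKO ventricles, against 0.28, 0.35 and 0.41 in controls. Its icKO arrays were all above the controls (0.53 ± 0.10, adjusted p = 0.00854), but with the mean of its probes the difference was 0.14 and not called (adjusted p = 0.453). Myc, which activates ribosome genes, rose by 0.96 ± 0.13 (adjusted p = 0.00212). The calls of Nrf1 and Myc ended with slide column as a block (0.57 and 0.95, adjusted p = 0.107 and 0.0724). Esrra, an estrogen-related receptor, fell by 0.56 ± 0.12 (adjusted p = 0.0124), and was not called with median scaling (-0.40), spike-in scaling (-0.12) or slide column as a block (-0.76). Gabpa fell by 0.31 ± 0.08, a call that ended when control 2 (-0.30), control 3 (-0.29), icKO 2 (-0.31) or icKO 3 (-0.30) was left out, and it stood at 0.14 with spike-in scaling. The coactivator Ppargc1b, not well above background on any icKO array, was at least 4.27-fold dimmer in icKO ventricles with percentile scaling. This bound equals the plain difference of its probe (-2.10). The spike-in scale raises that difference by 0.44, so the fold is smaller there. Ppargc1b is among the 3 called lower, but it passed the filter through the control arrays alone, so its test adds no support. Ppargc1a, a relative of Ppargc1b, and the factor Yy1, named after their values were seen, did not pass (-0.46 and -0.16, adjusted p = 0.136 and 0.255).

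**Figure D5:**
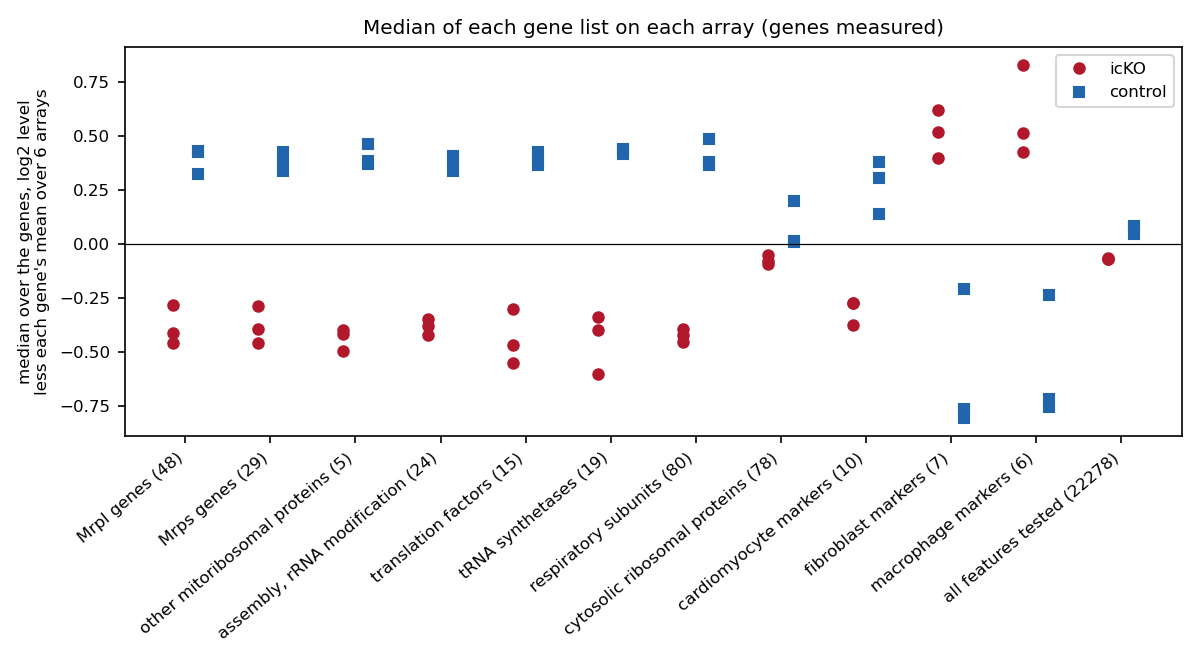
Median over the measured genes of each list on each array (y axis, log2 level less each gene's mean over the 6 arrays), icKO arrays as red circles and control arrays as blue squares, with 75th percentile scaling. In the mitochondrial translation and respiratory lists all 3 icKO arrays lie below all 3 controls. The same holds for cardiomyocyte markers, cytosolic ribosomal proteins and all features. Cytosolic ribosomal proteins and all features lie closer to 0, and fibroblast and macrophage markers lie higher in icKO. With quantile and spike-in scaling the cytosolic list has median differences of 0.11 and 0.29, where all features have -0.07 and 0.30.

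Markers of cell types moved with the groups too. Of 10 cardiomyocyte markers, 8 were lower and 0 higher, with a median of -0.60, or -0.01 with quantile normalization and -0.16 with spike-in scaling. Their summed level was 12.50 to 12.65 in icKO ventricles, against 13.12 to 13.40 in controls. Of 7 fibroblast markers, 6 were higher (median 0.99), with a summed level of 9.18 to 9.56 in icKO, against 7.92 to 8.62 in controls. All 6 measured macrophage markers were higher (median 1.11), at 6.18 to 6.57 in icKO, against 5.02 to 5.50 in controls. The remaining lists gave 2 lower and 1 higher of 5 endothelial, 1 and 1 of 4 smooth muscle and pericyte, and 0 and 1 of 2 erythroid markers. The ventricular myosin light chain Myl2 was well above background on all 6 arrays, and the atrial markers Myl7 and Sln on 2 and 1 of them. Of the other atrial markers, both measured on all 6 arrays, the light chain Myl4 was higher, averaging 3.18 ± 0.17 in icKO ventricles and 1.14 ± 0.18 in controls (SD, n = 3 each; limma difference 2.04 ± 0.14, adjusted p = 0.000277). Nppa, a natriuretic peptide that stressed ventricle also makes, did not pass (0.46 ± 0.39, adjusted p = 0.371). The part of cell composition in the fall of the mitochondrial ribosomal proteins was not tested.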

How the data were processed

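Total RNA of 6 heart ventricles, 3 icKO and 3 control, was labelled with Cy3, per the labels' protocols. Each deposited file gives linear intensity per spot, background-subtracted by Agilent Feature Extraction 11.0.1.1 for array design 028005 (build mm9), per the file headers; the version in the submitters' processing notes is 9.1. The authors' value table holds intensity too, with its scaling unstated here.

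From the log2 processed signal of each array, its 75th percentile among non-control spots was subtracted. Outlier-flagged spots were dropped and spots of a probe averaged. The filter kept probes that were well above background throughout at least 1 group (26152 of 55681). RefSeq accessions named 26582 probes, through a table of assembly GRCm38.p6. Genes with several such probes were represented by the brightest. Group was the only term in limma 3.58.1 (R 4.3.3), with Benjamini-Hochberg adjustment over 22278 features and a threshold of 0.05; the steps were tested on simulated data.

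Members, lists and settings were chosen with earlier results of these data known. Named genes were the 12 largest falls with separate groups, all members that did not pass or were called higher, 20 members fixed by role, members whose probes disagree, up to 3 rises and 3 falls per list, and Tead1. Mrps11, Mrps21 and Mrpl46 were named after their values were seen. A probe not well above background in a group is given as "at least N-fold", from the higher of its own signal and the lowest signal well above background on each array. Samples of different groups with 1 replicate number correlated at -0.05, -0.13 and 0.001 in their deviations, so numbers were not used as pairs. Genes not measured were Fastkd2, Mtrfr and Nars2 of the translation lists and Myl7, Sln, Cd68 and Hbb-b1 of the markers.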

Additional observations from a re-analysis of the deposited data

How the results depend on the processing

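The count of 72 lower members was within 1.5 times under every setting tried except spike-in scaling (25) and slide column as a block (35). With median scaling it was 53 (16.4% of all features were lower there), with quantile normalization and in the authors' values 68 each (23.8% and 23.6%), with normexp, which used median signals, 69 (34.5%), and with no filter on dim probes 54 of 78 (8.11%). Median scaling ended the calls of Mrpl10, Mrpl58, Mrps12, Mrps16, Mrps18a, Mrps18c, Mrps21, Mrps23 and Mrps34 among named members, and testing with no filter those of Mrpl10, Mrpl35, Mrps5, Mrps12, Mrps16, Mrps18a, Mrps18c, Mrps23 and Mrps34. Quantile normalization and the authors' value table each ended the calls of Mrps18c and Mrps23 among named members. Leaving out 1 array gave 61 to 70 lower members, a median difference of the members of -0.82 to -0.75, 0 higher members, and a large minus small subunit value of -0.049 to 0.0052. With replicate number as a block 63 members were lower, although the numbers do not pair the samples, and with slide row 70. The members lower in each setting were all among the 72, apart from Mrps7 with the mean of a gene's probes. For median and spike-in scaling, which raise all differences, this was nearly certain beforehand. The median difference of members moved to -0.62 with median scaling, -0.65 with normexp, -0.70 with quantile normalization, -0.69 in the authors' value table, -0.34 with spike-in scaling and -0.86 with slide column as a block. Members higher in icKO numbered 3 with spike-in scaling, and 1 with quantile normalization or the authors' value table. The large minus small subunit value was -0.059 with normexp; there and without icKO replicate 1 (-0.049) it was beyond the spread between arrays of 0.029. Other mitochondrial translation genes were lower in 25 with spike-in scaling, and 0 were higher with no filter on dim probes. With spike-in scaling the sign turned for the members Mrpl16 (0.0881), Mrpl52 (0.0776) and Mrpl57 (0.0979), and, of the genes named above, for Gabpa (0.14), Mrpl48 (0.25), Mrps12 (0.00964), Mrps18c (0.11), Mrps23 (0.0247), Mrps34 (0.0349), Mrps7 (0.26) and Tead1 (0.0434). Mrpl20 and Mrpl54, near 0, turned with slide column as a block (-0.0376 and -0.0406). Leaving out arrays gave Mrpl20 -0.0371 to 0.0820, below 0 without control 2 (-0.0214) or icKO 3. It gave Mrpl54 -0.0143 to 0.0637, below 0 without control 2 (-0.0005), control 3 (-0.0109), icKO 2 or icKO 3 (-0.0105). The share of lower calls among all calls was 64.2% with the 75th percentile, 45.4% with median, 56.5% with quantile, 19% with spike-in scaling, 56.2% in the authors' value table and 67.7% with normexp. Scaling shifted the median of all features by 0.16 with median and 0.44 with spike-in scaling. The slide column block leaves few degrees of freedom, and for the other changes the cause was not tested.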
